A study of Mus musculus with 24 samples.

Results

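The comparison set livers of Mrs2 knockout mice (KO) against livers of mice labelled wild type (WT), both on chow. It covered 14019 of the 54532 genes of the deposited table, chosen by a mean FPKM (sequenced fragments scaled by transcript length and library depth) of at least 0.5 over the 12 liver libraries of the series. KO on chow and WT on chow were represented by 3 mice each. All mice began their diet at 13 weeks of age and stayed on it for 52 weeks, and RNA came from 50 mg of a frozen powder of the whole organ. Livers labelled KO and WT on a Western diet (WD) for the same time, and inguinal fat (iWAT) of chow mice, 3 mice in each group, served only for comparison. Nothing in the labels names the strain, the knockout allele or the sex of the mice. In WT livers the Mrs2 gene was intact by label, and no further allele or agent was named for either genotype.

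Mrs2 is a channel of the inner mitochondrial membrane that lets magnesium into the matrix. There the ion binds ATP and serves as a cofactor of matrix enzymes, including the phosphatase that switches on pyruvate dehydrogenase. The liver relies on its mitochondria to burn fatty acids, to make glucose, ketones and urea, and to supply citrate for lipid synthesis. The series asks how mitochondrial magnesium bears on metabolism and mitochondrial function; on chow, the comparison of genotypes addresses the state of the liver without the dietary load.

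Mrs2 itself was lower in KO livers, but its transcript was still counted in all of them. It measured 3.90, 4.47 and 4.16 FPKM in KO livers, against 6.26, 5.87 and 6.50 FPKM in WT livers, which came from 382 to 488 reads and 583 to 611 reads. All KO livers were below all WT livers, and the KO mean was 0.672 times the WT mean. On the log2 scale KO stood at -0.48 ± 0.10 (SE) relative to WT with a limma unadjusted p of 0.000925, and it missed the threshold once adjusted over all genes (adjusted p = 0.863). Mrs2 lies on the minus strand of chromosome 13 (mm10, 24987483 to 25020379), and 2466 of its 7621 exonic bases (32.4%) are shared with exons of Gpld1. Without strand, reads from that stretch cannot be told apart between the genes. Gpld1 measured 64.5, 64.7 and 67.7 FPKM in KO livers and 75.5, 80.2 and 69.6 FPKM in WT livers. In iWAT of the chow mice Mrs2 measured 2.05, 1.74 and 2.25 FPKM in KO and 4.48, 4.67 and 3.87 FPKM in WT. In WD livers the groups overlapped, with 4.10, 5.21 and 4.21 FPKM under the KO label and 5.10, 4.10 and 5.11 FPKM under the WT label, so results from WD livers are given for the libraries as labelled.

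The chow livers yielded 15.3 to 19.5 M reads assigned to genes. Transcripts of hepatocytes led every library, and the hepatocyte list stood at a mean log2(FPKM + 1) of 10.5 to 10.6 in KO livers and 10.4 to 10.6 in WT livers. Several libraries carried transcripts of other tissues or stood apart, and these are named beside the results they touch. Digestive enzymes of the pancreas were high in KO replicate 1, where Ctrb1 reached 687 FPKM against 0 to 0.592 FPKM in the other 5. Skeletal muscle genes were high in WT replicate 3 and present in KO replicate 2, with Acta1 at 72.7 and 7.596 FPKM and at 0 in the rest. WT replicate 2 was high for immune genes and WT replicate 1 for cholesterol synthesis. The first principal component held 28% of the variance and set WT replicate 1 apart, at 40.5 against -26.3 to 10.5 in the others.

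No gene passed the test between KO and WT livers on chow. Limma on log2(FPKM + 1) called 0 of 14019 genes at an adjusted p under 0.05 (0%), and the smallest adjusted p was 0.863. At an unadjusted p under 0.05 there were 338 genes higher (2.41%) and 337 lower (2.4%) in KO livers, and edgeR called 0 with 839 genes at an unadjusted p under 0.05. Every KO library was above every WT library for 643 genes (4.59%) and below for 608 genes (4.34%). DESeq2 on the read counts called 16 genes (0.114%), 4 higher and 12 lower in KO livers. The median standard error of a log2 fold change was 0.132 to 0.189 across the ranges of expression level, so small differences in single genes were not detectable with 3 mice a group. Without WT replicate 3 limma called 2 genes, the antibody and T cell receptor segments Ighv1-42 and Trbj1-1, and these joined Tgm2 and Cib3 without KO replicate 1 and WT replicate 3 together. Those genes fall outside the rule for naming genes and were chosen after their values were seen.

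The direction of the differences went with expression level. Among the 1060 genes with a mean of 50 FPKM or more, 69.4% were above 0 with a median log2 fold change of 0.09, and 42 were higher but 1 lower in KO livers at an unadjusted p under 0.05. Among the 2033 genes between 0.5 and 1 FPKM, 36.3% were above 0 with a median of -0.06, and 25 were higher and 63 lower. The share for all genes together was 51.2% above 0, with a median of 0.005. Abundant and weak transcripts thus lay on opposite sides of 0.

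**Figure D1:**
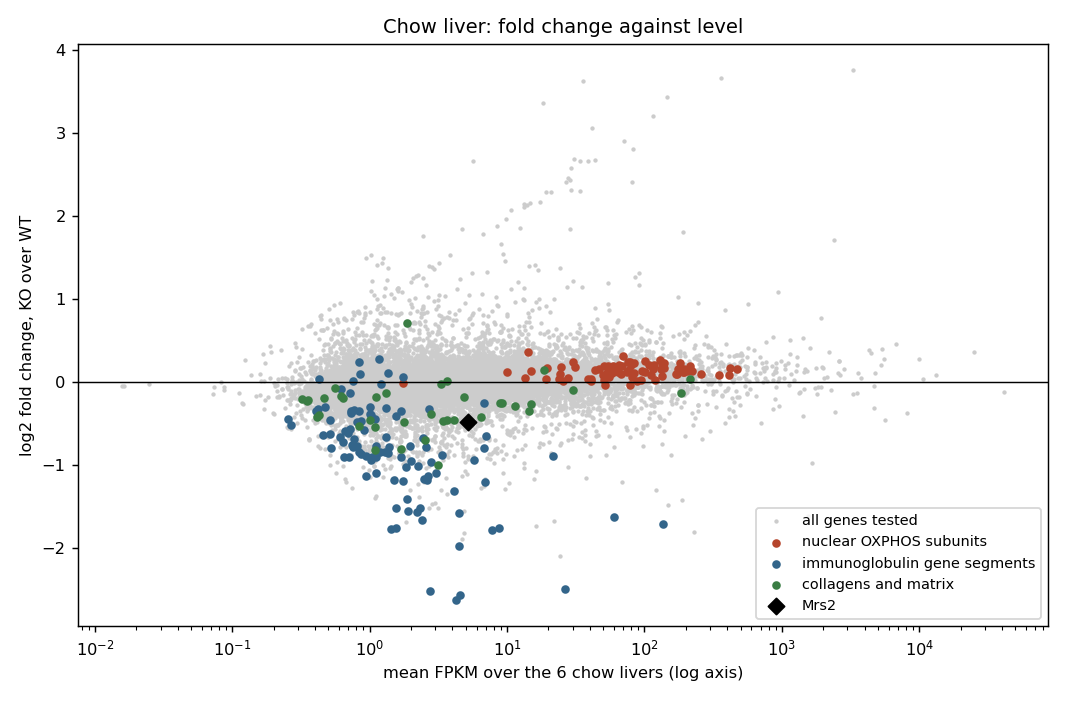
Log2 fold change of KO over WT in chow liver (vertical axis) against the mean FPKM over the 6 libraries (horizontal, log axis), with 1 point a gene. Nuclear OXPHOS subunits sit just above 0 at high levels, immunoglobulin segments and matrix genes lie mostly below 0 at low levels, and Mrs2 is at -0.48.

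The authors' deposited table lists 776 genes with an unadjusted p under 0.05, of which 225 were higher and 551 lower in KO livers. Of these, 10 had an adjusted p under 0.05 in the authors' deposited table, 6 higher and 4 lower. The higher ones were Slc22a7, Acss3, Fam213b, Elovl6, Paqr9 and Extl1, and the lower ones Ighg2b, Lpl, Ighg2c and Ubd. The DESeq2 calls from all 12 livers shared 7 genes with that set, which is 70% of the deposited calls and 43.8% of the 16. DESeq2 on the 6 chow livers alone, an alternative chosen after seeing the data, called 15 genes, among them all 10 of the deposited ones and Mrs2 (adjusted p = 0.0453). It shared 8 genes with the DESeq2 calls from 12 livers, which is 53.3% of the 15 and 50% of the 16. The other 4 of these 15 were Mup2, Pygl, Tpm1 and the gene model Gm13443.

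The authors' deposited table or DESeq2 called 7 genes on the higher side. Slc22a7, the organic anion transporter of the hepatocyte's blood-facing membrane, measured 20.4, 15.0 and 20.4 FPKM in KO livers, against 6.75, 7.77 and 9.19 FPKM in WT livers. All KO livers were well above all WT livers, with a log2 fold change of 1.14 ± 0.28 and a DESeq2 adjusted p of 0.0438. Acss3, a mitochondrial enzyme that activates propionate, measured 2.51, 4.62 and 3.39 FPKM in KO livers and 1.16, 1.34 and 1.57 FPKM in WT livers. Its log2 fold change was 0.91 ± 0.20 (DESeq2 adjusted p = 0.00951). Extl1, a glycosyltransferase of heparan sulfate synthesis, measured 3.34, 8.17 and 2.04 FPKM in KO livers, against 0.376, 1.203 and 1.16 FPKM in WT livers (log2 fold change 1.40 ± 0.35; DESeq2 adjusted p = 0.00951). No overlap was seen here either, though KO replicate 2 was far above the other KO livers.

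Fam213b, a reductase that makes prostaglandin F2 alpha, stood at 36.5, 45.8 and 23.96 FPKM in KO livers and 9.05, 13.4 and 16.3 FPKM in WT livers. KO livers were all above WT livers, and the authors' deposited table gives it a log2 fold change of 1.46 with an adjusted p of 0.0079. Elovl6, which elongates newly made palmitate, stood at 54.4, 53.3 and 47.9 FPKM in KO livers, against 28.1, 32.6 and 33.1 FPKM in WT livers. Paqr9, a membrane protein of the progestin and adipoQ receptor family, stood at 56.7, 71.8 and 63.5 FPKM in KO livers, against 39.3, 39.3 and 40.8 FPKM in WT livers. For both genes the spread within each group was small beside the gap between the groups. In the fit over all 12 livers their log2 fold changes were 0.71 ± 0.30 and 0.67 ± 0.26 with DESeq2 adjusted p of 0.569 and 0.478, whereas DESeq2 on the chow livers alone gave 0.00104 and 0.0039. Glrx, a glutaredoxin that reduces protein thiols, measured 10.4, 9.19 and 11.4 FPKM in KO livers and 4.33, 6.74 and 7.08 FPKM in WT livers (0.70 ± 0.14; DESeq2 adjusted p = 0.0376, and 0.351 on the chow livers alone).

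The other genes among the 12 with the largest positive fold changes had no call from any tool. Rrm2, a subunit of ribonucleotide reductase, measured 3.00, 5.53 and 5.18 FPKM in KO livers, against 0.676, 2.52 and 2.11 FPKM in WT livers (1.05 ± 0.32). Camk2b, a calcium and calmodulin kinase, measured 3.90, 4.39 and 4.77 FPKM in KO livers, against 2.41, 2.45 and 0.906 FPKM in WT livers (0.92 ± 0.24). Hspa8, the constitutive heat shock chaperone, measured 218, 276 and 376 FPKM in KO livers, against 150, 198 and 180 FPKM in WT livers (0.69 ± 0.21). For Prodh, the mitochondrial proline dehydrogenase, and Lrrc28, WT replicate 1 was the low library. Prodh measured 48.1, 57.1 and 59.5 FPKM in KO livers and 15.7, 45.9 and 44.4 FPKM in WT livers, and its log2 fold change of 0.76 became 0.27 without WT replicate 1. That of Lrrc28 was 0.78 with and 0.43 without that library. Mup15, a member of the major urinary protein family, had 407, 16.9 and 42.0 FPKM in KO livers and 15.0, 4.81 and 8.94 FPKM in WT livers, so KO replicate 1 set most of the difference (2.80, and 1.51 without it). Near-identical copies of the Mup genes share reads, so the split between members is uncertain.

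Antibody genes were frequent among the named genes of the lower side. Of the 12 largest falls at a limma unadjusted p under 0.05 and without overlap, 8 were segments of immunoglobulin genes. The filter on a mean over 12 livers lets in segments that are high in 1 group only, so this count supports nothing further. Ighg2b, the constant region of an IgG heavy chain, measured 1.63, 1.6 and 2.30 FPKM in KO livers, against 8.73, 7.13 and 3.36 FPKM in WT livers. KO livers were all below WT livers, and the log2 fold change was -1.31 ± 0.34 (DESeq2 adjusted p = 0.0376). Ighg2c, another IgG constant region, measured 1.93, 2.69 and 5.29 FPKM in KO livers and 10.3, 24.2 and 8.26 FPKM in WT livers (-1.76 ± 0.45; DESeq2 adjusted p = 0.0399). Ighd, the constant region of IgD on naive B cells, measured 0.409, 0.501 and 0.410 FPKM in KO livers and 2.62, 1.65 and 1.02 FPKM in WT livers (-0.90 ± 0.21; DESeq2 adjusted p = 0.0439, and 0.0905 on the chow livers alone). Short segments rested on few reads: Ighv1-9 had 0 reads in each KO liver and 3, 22 and 13 reads in WT livers. With a floor of 3 reads over the KO group, its pooled WT reads were 14.2-fold higher after scaling to depth. Ighv1-50 had 0 reads in each KO liver and 3, 34 and 10 reads in WT livers, with a pooled ratio of 17.6. These pooled ratios leave out the spread between mice, and WT replicate 1 had 3 reads for each segment. Igkj2 had 0, 0 and 1 reads in KO livers and 5, 6 and 2 reads in WT livers, and the small nucleolar RNA Snord71 had 1, 0 and 3 against 4, 6 and 4, so both are counts near the floor.

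Other genes on the lower side were of fat uptake, contractile filaments and immune signalling. Lpl, the lipase that releases fatty acids from lipoproteins, measured 1.97, 1.45 and 2.56 FPKM in KO livers, against 6.21, 4.27 and 3.86 FPKM in WT livers (-0.94 ± 0.25; DESeq2 adjusted p = 0.0377). Tpm1, a tropomyosin of actin filaments, measured 6.12, 5.32 and 4.85 FPKM in KO livers, against 7.82, 8.97 and 10.04 FPKM in WT livers (-0.63 ± 0.13; DESeq2 adjusted p = 0.0202). Neither gene's groups overlapped. For Tpm1, WT replicate 3, the library with muscle transcripts, was the highest, and WT replicates 1 and 2 were above all KO livers too. Smoc2, a secreted matrix protein, measured 0.604, 0.754 and 0.916 FPKM in KO livers and 2.57, 1.88 and 1.21 FPKM in WT livers (-0.69 ± 0.20). Clcf1, a cytokine that acts on B cells, measured 0.377, 0.128 and 0.297 FPKM in KO livers and 1.56, 1.61 and 0.524 FPKM in WT livers (-0.78 ± 0.19). Atp2a3, a calcium pump of blood cells, measured 0.324, 0.346 and 0.369 FPKM in KO livers and 0.957, 1.45 and 0.645 FPKM in WT livers (-0.56 ± 0.16). All 3 were among the DESeq2 calls from 12 livers, at levels below 1 FPKM in KO livers. DESeq2 on the chow livers alone called none of them, with adjusted p of 0.0958, 0.115 and 0.115.

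For 5 further genes the difference was smaller, in the same direction, without WT replicate 2. Ubd, an interferon-inducible protein tag, measured 1.34, 0.682 and 0.419 FPKM in KO livers and 1.14, 19.1 and 5.66 FPKM in WT livers. The groups overlapped through WT replicate 1, and the log2 fold change of -1.89 became -1.09 without WT replicate 2. Ccl5, a chemokine of T cells, measured 1.86, 0.579 and 1.01 FPKM in KO livers and 2.21, 11.7 and 2.37 FPKM in WT livers (-1.31, and -0.65 without WT replicate 2). Gimap3, a GTPase of lymphocytes, had -1.04 with and -0.57 without that library. The DESeq2 calls Il21r and Cx3cr1, receptors of lymphocytes and monocytes, had -0.54 and -0.46 with that library and -0.34 and -0.30 without it. On the chow livers alone DESeq2 gave Cx3cr1 an adjusted p of 0.251 and Il21r none.

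**Figure D2:**
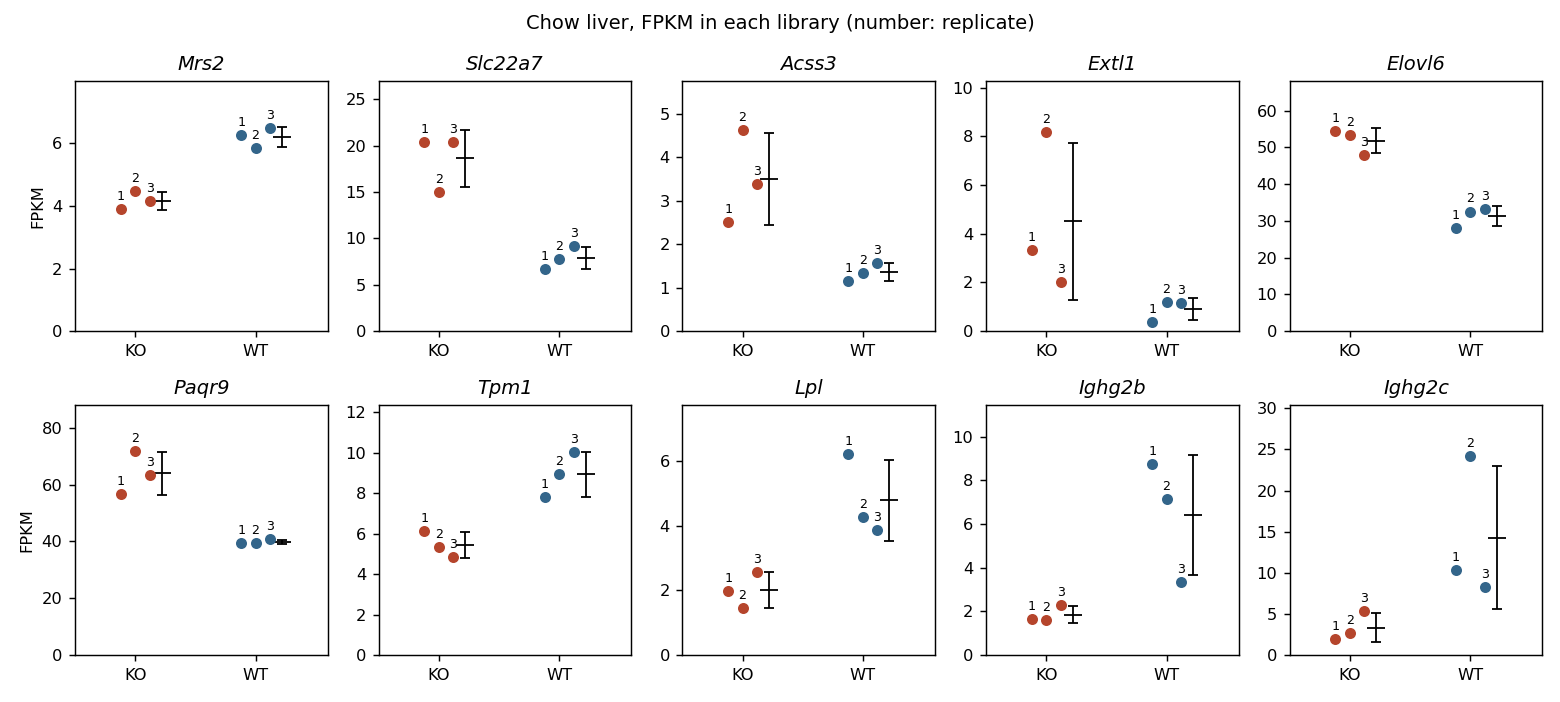
FPKM (vertical axes, from 0) of Mrs2 and 9 genes with an adjusted p under 0.05 in DESeq2 or in the authors' deposited table. Each point is 1 chow liver numbered by replicate, KO left and WT right, with the group mean and SD beside the points. The groups do not overlap in these 10 panels, which are a selection. The groups of Ubd, a call that is not shown, overlapped.

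Subunits of the respiratory chain were mostly slightly above 0, and KO replicate 2 was the highest library. The mean log2(FPKM + 1) of complex I was 5.57, 5.77 and 5.599 in KO livers and 5.498, 5.47 and 5.56 in WT livers. For complexes II to V it was 6.79, 6.998 and 6.82 in KO livers and 6.73, 6.68 and 6.82 in WT livers. There KO replicate 1 was below WT replicate 3. Of 76 nuclear-encoded subunits tested, 73 were above 0, with a median log2 fold change of 0.13 beside 0.005 for all genes. Complex I, the entry point for electrons from NADH, had 35 of 37 subunits above 0 (median 0.14), and complexes II to V had 38 of 39 (median 0.13). No subunit passed the adjusted test, and 2 of 76 were higher at a limma unadjusted p under 0.05, near the 2.41% of all genes. KO libraries were all above WT libraries for 15 of 76, beside 4.59% of all genes. Level matters here: of the 50 subunits at 50 FPKM or more, 49 were above 0 with a median of 0.15, beside 69.4% and 0.09 for all genes at that level. Of the 25 subunits between 5 and 50 FPKM, 24 were above 0 with a median of 0.10, beside 60.1% and 0.04. Quantile normalization left 59 of 76 above 0 with a median of 0.06, and leaving out KO replicate 2 left 62 of 76 with a median of 0.07.

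Promoters of 3 subunits are shown because a motif of nuclear respiratory factor 1, a regulator of respiratory chain genes, falls in them. The letters searched were GCATGCGC and, on the other strand, GCGCATGC, which overlap in part. At least 1 match lay in 11 of 64 subunit promoters that matched by symbol (17.2%), beside 5.80% of the 9608 promoters of tested genes. The windows run from 250 bases before to 50 bases after the start in RefSeq on GRCm38.p6, all on the minus strand and given 5′ to 3′, with the matches in capitals. The 3 are the matching subunits with the smallest limma p, at chr2:36049289-36049588, chr15:82354242-82354541 and chr10:80406772-80407071.
Ndufa8: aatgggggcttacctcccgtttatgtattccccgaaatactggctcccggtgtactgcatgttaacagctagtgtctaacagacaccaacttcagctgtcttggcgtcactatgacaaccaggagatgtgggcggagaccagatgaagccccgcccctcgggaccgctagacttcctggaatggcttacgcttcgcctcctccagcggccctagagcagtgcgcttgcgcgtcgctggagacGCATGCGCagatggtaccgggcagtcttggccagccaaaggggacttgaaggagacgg
Ndufa6: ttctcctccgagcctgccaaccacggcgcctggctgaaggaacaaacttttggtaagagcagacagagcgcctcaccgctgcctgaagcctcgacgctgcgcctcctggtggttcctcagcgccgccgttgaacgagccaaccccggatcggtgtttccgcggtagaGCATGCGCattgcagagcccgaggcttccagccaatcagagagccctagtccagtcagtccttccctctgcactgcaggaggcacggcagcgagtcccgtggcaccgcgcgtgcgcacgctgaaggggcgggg
Uqcr11: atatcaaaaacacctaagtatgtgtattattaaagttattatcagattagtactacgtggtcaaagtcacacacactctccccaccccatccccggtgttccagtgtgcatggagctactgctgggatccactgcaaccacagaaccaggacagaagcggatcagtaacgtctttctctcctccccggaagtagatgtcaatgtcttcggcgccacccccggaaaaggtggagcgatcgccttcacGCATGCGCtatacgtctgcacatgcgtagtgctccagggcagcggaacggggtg
Ndufa8, an accessory subunit of complex I, measured 101, 121 and 109 FPKM in KO livers, against 86.3, 96.4 and 94.8 FPKM in WT livers, without overlap (0.25 ± 0.09, limma unadjusted p = 0.0238). Ndufa6, another complex I subunit, measured 73.8, 94.5 and 78.5 FPKM in KO livers, against 73.2, 64.2 and 70.1 FPKM in WT livers (0.24 ± 0.11). Uqcr11, a small subunit of complex III, measured 220, 249 and 218 FPKM in KO livers and 220, 186 and 196 FPKM in WT livers (0.19 ± 0.13), so its groups overlapped.

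The smallest p among other subunits belonged to Ndufb4 and Ndufb9 of complex I and Atp5h of ATP synthase. Ndufb4 measured 28.9, 35.7 and 33.3 FPKM in KO livers and 27.4, 25.1 and 30.0 FPKM in WT livers (0.24 ± 0.10). Ndufb9 measured 85.3, 97.1 and 90.5 FPKM in KO livers and 76.4, 74.9 and 80.5 FPKM in WT livers (0.23 ± 0.10). Atp5h measured 116, 139 and 121 FPKM in KO livers and 107, 104 and 115 FPKM in WT livers (0.20 ± 0.09). KO replicate 2 was the highest library for all 3.

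Of the 13 proteins encoded in mitochondrial DNA, 11 had transcripts above 0 (median 0.26, 0.08 without KO replicate 2 and 0.14 without WT replicate 2), and no gene's groups were without overlap. The mitochondrially encoded mt-Cytb of complex III measured 6277, 8796 and 8509 FPKM in KO livers and 5770, 4852 and 6423 FPKM in WT livers (0.46 ± 0.17). The reads of these genes took 3.59%, 4.69% and 4.04% of each KO library and 3.57%, 3.58% and 3.88% of each WT library. The means were 4.11% ± 0.553 and 3.68% ± 0.175 (SD, n = 3 each), with p = 0.2 in a two-sided exact permutation test whose smallest possible p is 0.1. Selection on poly-T beads may weigh mitochondrial transcripts unequally, which was not tested. Among 77 proteins of the mitochondrial ribosome, 58 were above 0 with a median of 0.06 that was 0.03 without KO replicate 2. Mrpl55 measured 18.4, 19.9 and 16.1 FPKM in KO livers and 15.1, 15.8 and 13.98 FPKM in WT livers.

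Genes of pyruvate entry and the citric acid cycle were mostly above 0. The list had 22 of 26 members above 0 (median 0.12, 0.20 without WT replicate 3 and 0.06 under quantile normalization). Of these, 3 were higher at an unadjusted p under 0.05, beside 2.41% of all genes. For comparison by level, 60.1% of all genes between 5 and 50 FPKM were above 0, with a median of 0.04. At 50 FPKM or more it was 69.4%, with a median of 0.09. Pdhb, a subunit of pyruvate dehydrogenase, measured 55.3, 58.5 and 62.0 FPKM in KO livers, against 35.5, 46.0 and 45.5 FPKM in WT livers (0.47 ± 0.15). Pdp2, a catalytic subunit of the complex's magnesium-dependent phosphatase, measured 14.2, 11.6 and 15.6 FPKM in KO livers, against 11.1, 10.1 and 9.05 FPKM in WT livers (0.41 ± 0.15). Neither gene's groups overlapped. Fh1, fumarase, measured 120, 94.8 and 131 FPKM in KO livers and 76.8, 106 and 72.3 FPKM in WT livers, where WT replicate 2 reached into the KO range. Pank1 and Pank3, kinases that start coenzyme A synthesis, had log2 fold changes of 0.42 ± 0.15 and 0.28 ± 0.09. Pank3 measured 22.5, 24.1 and 25.6 FPKM in KO livers and 18.2, 18.6 and 22.4 FPKM in WT livers. Pank1 measured 102, 104 and 93.9 FPKM in KO livers and 67.2, 71.5 and 86.0 FPKM in WT livers. The peroxisomal coenzyme A hydrolase Nudt7 measured 108, 133 and 105 FPKM in KO livers and 59.3, 69.5 and 91.1 FPKM in WT livers (0.67 ± 0.31). In the coenzyme A list 9 of 11 members were above 0, with a median of 0.07 that was 0.14 without KO replicate 1 and 0.19 without WT replicate 3.

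Carbohydrate genes leaned the same way, with 19 of 25 above 0 and a median of 0.18, which was 0.11 under quantile normalization. Level matters here too, since 69.4% of all genes at 50 FPKM or more were above 0, with a median of 0.09. Pygl, the liver phosphorylase that breaks down glycogen, measured 93.1, 95.4 and 89.7 FPKM in KO livers, against 66.0, 69.3 and 68.7 FPKM in WT livers. Both groups were tight and well apart (0.44 ± 0.13), and DESeq2 on the chow livers alone gave an adjusted p of 0.03. Fbp1, a fructose bisphosphatase of glucose synthesis, measured 771, 727 and 828 FPKM in KO livers and 639, 663 and 674 FPKM in WT livers (0.23 ± 0.10). Pkm, the pyruvate kinase of cells other than hepatocytes, was below WT in all KO livers, with 4.88, 4.36 and 3.84 FPKM in KO and 6.18, 8.55 and 5.71 FPKM in WT (-0.53 ± 0.22). The gate enzymes of glucose release overlapped between the groups. G6pc measured 182, 302 and 459 FPKM in KO livers and 242, 212 and 66.6 FPKM in WT livers, and Pck1 measured 1057, 1034 and 1967 FPKM in KO livers and 931, 1129 and 704 FPKM in WT livers.

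Fat synthesis was mixed, with 14 of 24 genes above 0 (median 0.22, 0.34 without KO replicate 3, 0.10 without KO replicate 1 and 0.13 with WT replicate 3 left out). Besides Elovl6, Me1, the malic enzyme that makes NADPH for fat synthesis, measured 85.1, 80.4 and 49.0 FPKM in KO livers and 28.2, 36.6 and 51.7 FPKM in WT livers, so KO replicate 3 overlapped with WT (0.87 ± 0.36). Mlxipl, which encodes the carbohydrate response factor ChREBP, measured 101, 80.5 and 79.2 FPKM in KO livers, against 75.4, 58.9 and 73.0 FPKM in WT livers (0.33 ± 0.15, and 0.21 without KO replicate 1). Scd2, a desaturase scarce in hepatocytes, measured 1.61, 1.51 and 1.83 FPKM in KO livers and 5.31, 3.73 and 1.52 FPKM in WT livers (-0.67 ± 0.28, -0.38 without WT replicate 1 and -1.04 without WT replicate 3). The burning of fatty acids and the making of ketones had 25 of 33 genes above 0, beside 69.4% of all genes at 50 FPKM or more. Their median was 0.11, -0.01 without KO replicate 2 and 0.04 under quantile normalization. None of them had a limma unadjusted p under 0.05, and none was without overlap. Lipid droplet and uptake genes other than Lpl gave no such p either, and of the 23 tested 13 were above 0.

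Bile acid genes were split, with 12 of 23 above 0. Cyp27a1, which opens the alternative route of bile acid synthesis in mitochondria, measured 317, 346 and 337 FPKM in KO livers, against 217, 241 and 294 FPKM in WT livers (0.42 ± 0.14). The groups did not overlap. Cyp7a1, the rate-limiting enzyme of the classical route, measured 46.2, 159 and 130 FPKM in KO livers and 39.97, 45.3 and 122 FPKM in WT livers, with a broad overlap. The bile acid importer Slc10a1 measured 381, 476 and 482 FPKM in KO livers and 253, 300 and 446 FPKM in WT livers (0.46 ± 0.20, and 0.28 without WT replicate 1). Of the urea cycle and glutamine genes, 10 of 12 were above 0, beside 69.4% of all genes at 50 FPKM or more. Their median was 0.17, 0.06 without WT replicate 2 and 0.04 under quantile normalization. Asl, argininosuccinate lyase, measured 163, 187 and 294 FPKM in KO livers and 117, 158 and 143 FPKM in WT livers (0.58 ± 0.25, and 0.34 without KO replicate 3).

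Genes under growth hormone or with a male bias had 17 of 25 members above 0, beside 69.4% of all genes at 50 FPKM or more. Their median was 0.31, and 0.21 without WT replicate 1. Of the 25, 4 were higher at an unadjusted p under 0.05, beside 2.41% of all genes. Igf1, the growth factor that the liver releases in response to growth hormone, measured 88.9, 88.5 and 112 FPKM in KO livers and 60.2, 79.1 and 84.6 FPKM in WT livers (0.37 ± 0.16, and 0.23 without WT replicate 1). Its serum partner Igfals measured 67.8, 82.2 and 78.0 FPKM in KO livers and 48.0, 55.4 and 73.0 FPKM in WT livers (0.38 ± 0.17, and 0.25 without WT replicate 1). Stat5a, a transducer of the hormone's signal, measured 2.71, 3.59 and 3.59 FPKM in KO livers and 2.17, 2.96 and 2.26 FPKM in WT livers (0.31 ± 0.13). WT replicate 1 was the lowest library for all 3. Among cytochrome P450 genes 18 of 24 were above 0, beside 69.4% of all genes at 50 FPKM or more. The P450 median was 0.33 with all libraries, -0.03 without WT replicate 1, 0.22 without KO replicate 2 and 0.51 without WT replicate 3. The female-biased Cyp2c40 measured 4.01, 2.03 and 1.40 FPKM in KO livers and 1.32, 0.301 and 1.15 FPKM in WT livers (0.83 ± 0.30, and 0.53 without KO replicate 1).

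Other routes for magnesium did not stand apart. Of 20 listed transporters of the ion 15 were tested, 8 above and 7 below 0, and Mrs2 was the only one with an unadjusted p under 0.05 in the limma fit. Trpm7, a channel kinase that brings magnesium into cells, measured 8.64, 9.49 and 10.1 FPKM in KO livers and 7.76, 7.73 and 9.30 FPKM in WT livers. Mmgt1, a membrane protein linked to magnesium transport, was above WT in all KO livers, with 8.65, 9.49 and 8.82 FPKM in KO and 8.26, 8.203 and 6.30 FPKM in WT (0.23 ± 0.12). Among 13 genes of mitochondrial calcium handling, 8 were above 0. Letm1, an ion exchanger of the inner membrane, measured 9.13, 10.6 and 11.7 FPKM in KO livers, against 7.65, 8.78 and 7.45 FPKM in WT livers (0.35 ± 0.15). Micu2, a gatekeeper of the calcium uniporter, measured 18.5, 13.9 and 13.1 FPKM in KO livers and 23.0, 19.96 and 16.9 FPKM in WT livers (-0.38 ± 0.15), with an overlap of KO replicate 1. The stress lists were near 0. The integrated and mitochondrial stress response had 16 of 23 above 0 with a median between 0.02 and 0.07 on leaving out each library, and its hormones Fgf21 and Gdf15 overlapped between groups. Fgf21 measured 1.47, 2.504 and 1.84 FPKM in KO livers and 1.89, 1.77 and 1.62 FPKM in WT livers. The oxidative stress response had 11 of 20 above 0 with a median between -0.004 and 0.05.

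**Figure D3:**
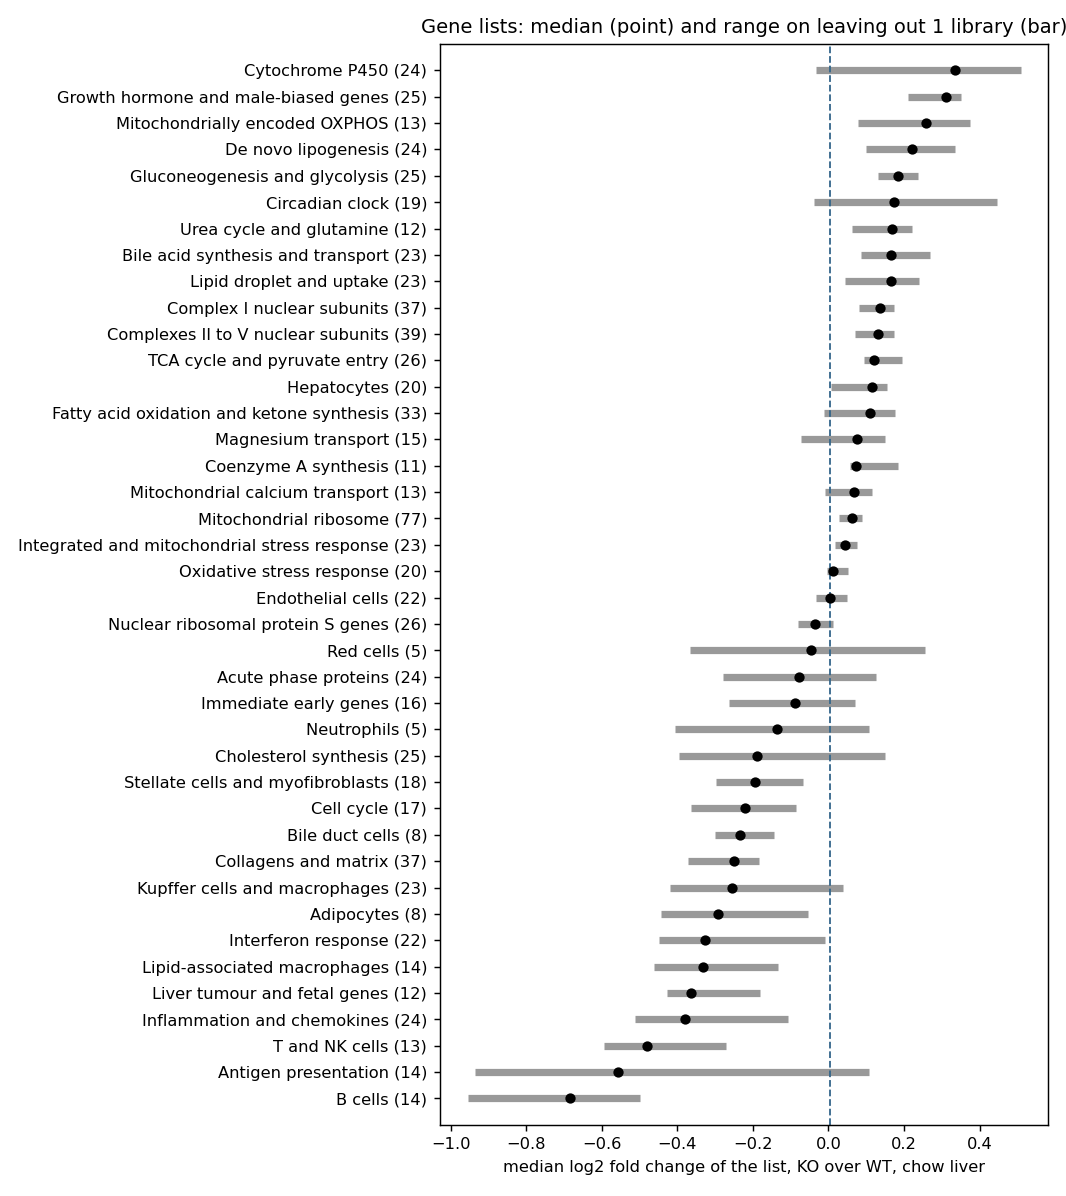
Median log2 fold change of KO over WT in chow liver for 40 gene lists, with the number of tested members in brackets. Bars span the medians on leaving out each of the 6 libraries in turn, and the dashed line is the median of all genes (0.005). The nuclear respiratory chain lists lie above the line with their whole bars, the bar of mitochondrial calcium transport crosses 0, and the bars of the B cell and T cell lists lie wholly below it.

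B cell genes were below 0 as a list, but the livers overlapped. The mean log2(FPKM + 1) of the list was 1.58, 1.34 and 1.76 in KO livers and 2.64, 2.83 and 1.67 in WT livers, so WT replicate 3 was within the KO range. All 14 tested B cell genes were below 0 (median -0.68), 6 at an unadjusted p under 0.05 beside 2.4% of all genes, and the median stayed between -0.96 and -0.50 on leaving out each library. Since the filter on a mean over 12 livers lets in genes that are high in 1 group only, these values describe the genes that passed. They support nothing further. In whole tissue, fewer cells of a type and less RNA per cell cannot be told apart. Cd79a, a signalling chain of the B cell receptor, measured 0.160, 0.981 and 0.535 FPKM in KO livers, against 3.02, 3.00 and 1.45 FPKM in WT livers (-1.16 ± 0.31). Its groups did not overlap, but the values rested on 3, 18 and 12 reads in KO livers and 54, 57 and 26 reads in WT livers.

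Antibody transcripts as a whole were mostly below 0. Of 101 tested immunoglobulin segments 92 were below 0, with a median of -0.78, and 19 had all KO libraries below all WT libraries, beside 4.34% of all genes. This set was formed after seeing the data, and its filter on a mean over 12 livers lets in segments that are high in 1 group only: 48 of the 101 averaged under 0.5 FPKM in KO livers and 3 in WT livers. The counts and the median are therefore a description of the segments that passed and support nothing further, which holds for the cell type lists near the filter too. Together immunoglobulin genes took 117, 45.7 and 166 reads per M in KO livers and 390, 666 and 109 in WT livers. WT replicate 3 was thus within the KO range, and the abundant constant regions behaved like the sum. Igkc, the kappa light chain, measured 64.1, 23.7 and 88.7 FPKM in KO livers and 215, 362 and 63.9 FPKM in WT livers (-1.71 ± 0.79). Ighm, the IgM heavy chain, measured 29.1, 8.37 and 42.1 FPKM in KO livers and 104, 153 and 21.0 FPKM in WT livers (-1.62 ± 0.88). The segment median was -0.46 without WT replicate 2 and -1.12 without WT replicate 3. Segments of one family are alike in sequence, so reads may be split between them.

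T cell and natural killer genes were also all below 0, 13 of 13 with a median of -0.48, and 6 of these had all KO libraries below all WT libraries, beside 4.34% of all genes. Trac, the constant region of the T cell receptor alpha chain, measured 0.333, 0.679 and 0.486 FPKM in KO livers, against 1.13, 2.87 and 1.47 FPKM in WT livers (-0.87 ± 0.31). Cd2, an adhesion receptor of T cells, measured 0.268, 0.182 and 0.224 FPKM in KO livers, against 0.609, 0.969 and 0.373 FPKM in WT livers (-0.41 ± 0.15). WT replicate 2 was the highest library for both, and the list's median was -0.27 without it. A further 12 of the 25 listed genes were below the filter, so the list holds its stronger members only. The filter on a mean over 12 livers lets in genes that are high in 1 group only. The counts and the median therefore describe the genes that passed and support nothing further.

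Inflammation genes were below 0 in 23 of 24 cases (median -0.38, -0.24 without KO replicate 2 and -0.11 without WT replicate 2). Ccl2, the chemokine that draws monocytes, measured 1.37, 0.418 and 0.913 FPKM in KO livers, against 2.86, 2.76 and 1.43 FPKM in WT livers (-0.82 ± 0.25). Il1rn, the antagonist of the interleukin 1 receptor, measured 0.632, 0.287 and 0.270 FPKM in KO livers, against 1.66, 1.05 and 0.938 FPKM in WT livers (-0.66 ± 0.21). For both genes every KO liver was below every WT liver, including WT replicates 1 and 3.

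Antigen presentation showed the other pattern, that of 1 library. All 14 genes were below 0 with a median of -0.56, but the median was 0.11 without WT replicate 2, and no gene's groups were without overlap. H2-DMa, a loader of peptides on MHC class II, measured 3.08, 2.27 and 2.06 FPKM in KO livers and 2.38, 15.6 and 2.72 FPKM in WT livers. Interferon response genes had 19 of 22 below 0 (median -0.33, and -0.01 without WT replicate 2), and macrophage genes had 21 of 23 below 0 (median -0.26, and 0.04 without it). Mpeg1, a pore protein of macrophages, measured 31.0, 21.2 and 24.03 FPKM in KO livers and 35.5, 75.1 and 24.8 FPKM in WT livers. Clec4f, the lectin that defines resident Kupffer cells, measured 48.3, 47.2 and 47.2 FPKM in KO livers and 38.4, 59.8 and 41.2 FPKM in WT livers (0.06 ± 0.53). Marco, a scavenger receptor of Kupffer cells, measured 4.16, 1.03 and 3.74 FPKM in KO livers and 4.74, 7.45 and 8.59 FPKM in WT livers (-1.08 ± 0.82, and -0.65 without KO replicate 2). The acute phase protein Lcn2 measured 19.03, 1.45 and 6.39 FPKM in KO livers and 8.51, 51.8 and 7.20 FPKM in WT livers, and its list was split, with 11 of 24 above 0.

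Connective tissue genes were mostly below 0. The mean log2(FPKM + 1) of the collagen and matrix list was 2.03, 2.02 and 1.93 in KO livers and 2.32, 2.53 and 1.999 in WT livers, with WT replicate 3 below KO replicates 1 and 2. Of 37 collagen and matrix genes 33 were below 0 (median -0.25, between -0.37 and -0.18 on leaving out each library), and 10 had all KO libraries below all WT libraries, beside 4.34% of all genes. Level matters here too, since weak genes leaned below 0 in general. Among all genes between 1 and 5 FPKM, 44.3% were above 0 with a median of -0.02. Dpt, dermatopontin of the collagen network, measured 2.71, 1.89 and 1.62 FPKM in KO livers, against 3.88, 5.34 and 3.57 FPKM in WT livers (-0.78 ± 0.22). Col3a1, the chain of type III collagen, measured 1.70, 1.85 and 1.42 FPKM in KO livers, against 3.54, 7.63 and 2.77 FPKM in WT livers (-0.995 ± 0.33, and -0.64 without WT replicate 2). Loxl1, which crosslinks elastin, measured 0.212, 0.265 and 0.138 FPKM in KO livers, against 0.593, 0.767 and 0.492 FPKM in WT livers (-0.42 ± 0.14). Col1a1, the main chain of type I collagen, measured 0.569, 0.460 and 0.287 FPKM in KO livers, against 0.944, 3.33 and 0.927 FPKM in WT livers (-0.82 ± 0.37, and -0.43 without WT replicate 2). The groups did not overlap for any of these 4. Col15a1, a basement membrane collagen, stood out on the other side, with 4.003, 1.86 and 1.92 FPKM in KO livers and 0.796, 1.23 and 1.38 FPKM in WT livers (0.71 ± 0.26, and 0.45 without KO replicate 1).

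Markers of the cells that could carry these transcripts were unequal. Stellate cell and myofibroblast genes had 13 of 18 below 0, with a median of -0.20 that was -0.07 without WT replicate 1, -0.10 without WT replicate 2 and -0.30 without WT replicate 3. Bile duct genes had 7 of 8 below 0 (median -0.23, and -0.14 without WT replicate 1), and endothelial genes were even, with 11 above and 11 below 0. Eng, a marker of endothelium, measured 19.8, 21.1 and 20.1 FPKM in KO livers and 19.3, 21.1 and 20.6 FPKM in WT livers. The endothelial list gave a difference within 0.05 of 0 on leaving out any 1 library. Sox9, a factor of bile duct cells, measured 2.48, 0.403 and 1.43 FPKM in KO livers and 3.78, 4.28 and 1.94 FPKM in WT livers (-0.88 ± 0.32, and -0.53 without KO replicate 2). Klf2, a transcription factor induced by flow in endothelium, measured 3.62, 5.37 and 4.71 FPKM in KO livers and 5.47, 7.51 and 7.38 FPKM in WT livers (-0.49 ± 0.14), and the immediate early factor Klf6 measured 2.07, 2.66 and 2.94 FPKM and 5.10, 4.23 and 3.07 FPKM (-0.52 ± 0.19). Genes of liver tumours and fetal liver had 10 of 12 below 0 (median -0.36, and -0.18 without WT replicate 2). Afp, the fetal serum protein, measured 1.34, 1.34 and 0.713 FPKM in KO livers, against 1.79, 1.55 and 2.62 FPKM in WT livers (-0.49 ± 0.16). Cell cycle genes had 13 of 17 below 0 (median -0.22, -0.09 without WT replicate 2 and -0.36 without WT replicate 3), with Mcm3, a helicase subunit of DNA replication, at 1.53, 1.40 and 1.12 FPKM in KO livers and 2.63, 2.43 and 1.79 FPKM in WT livers (-0.48 ± 0.13), while Rrm2 lay on the other side. Neutrophil genes had 4 of 5 below 0 (median -0.13, but 0.11 without WT replicate 2 and -0.41 without WT replicate 3). Adipocyte genes had 6 of 8 below 0 (median -0.29, -0.06 without KO replicate 3, -0.44 without KO replicate 2 and -0.13 with WT replicate 2 left out). Genes of lipid-associated macrophages had 11 of 14 below 0 (median -0.33, and -0.13 without WT replicate 2). Immediate early genes had 10 of 16 below 0, red cell genes 4 of 5, and small-subunit ribosomal proteins 16 of 26.

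**Figure D4:**
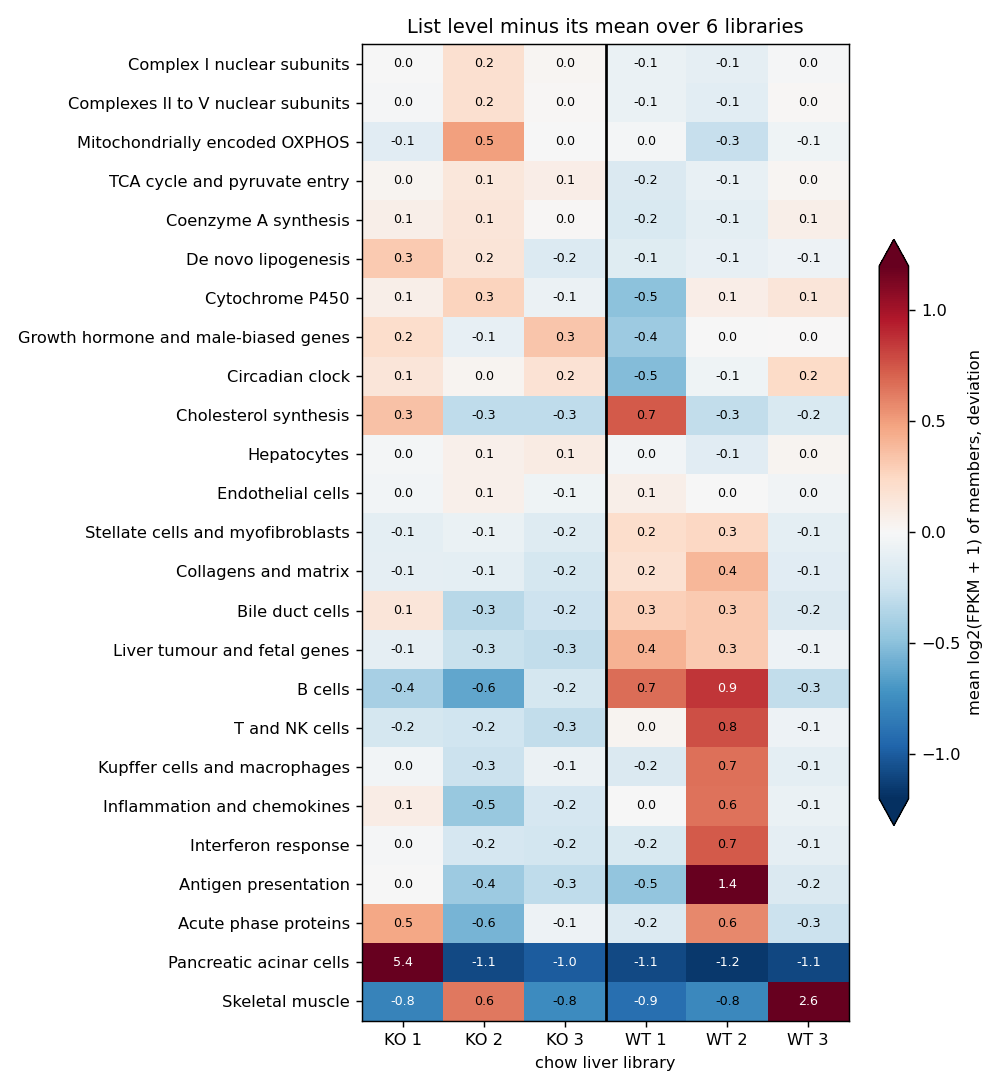
Level of 25 gene lists in each chow liver, KO left and WT right of the line. Each cell is the mean log2(FPKM + 1) of the list's tested members minus its mean over the 6 libraries, in colour and as a number; the pancreas in KO 1, muscle in WT 3, antigen presentation in WT 2 and cholesterol synthesis in WT 1 each stand out in 1 library.

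Clock and sterol genes differed by library more than by genotype. The genes named here were picked after their values were seen. Usp2, a ubiquitin protease with a daily rhythm, measured 18.9, 18.6 and 20.3 FPKM in KO livers and 1.08, 16.6 and 27.1 FPKM in WT livers. Per1, a repressor of the clock, measured 10.2, 13.4 and 15.3 FPKM in KO livers and 3.47, 13.8 and 13.1 FPKM in WT livers. Nr1d1, which encodes REV-ERB alpha, measured 22.5, 8.07 and 14.9 FPKM in KO livers and 58.2, 6.08 and 17.7 FPKM in WT livers. WT replicate 1 was the outlying library for all 3, and the median of the clock list was 0.17 with it and -0.04 without it. In the same library Hmgcs1, an early enzyme of sterol synthesis, reached 290 FPKM, against 95.7, 42.1 and 39.9 FPKM in KO livers and 62.3 and 32.1 FPKM in the other WT livers. Of the 25 genes of cholesterol synthesis 21 were below 0 with a median of -0.19, which was 0.15 without WT replicate 1. Mup7, a urinary protein gene, was at 162 FPKM there, against 4024, 1577 and 3898 FPKM in KO livers and 1233 and 3458 FPKM in the other WT livers. No label gives the hour of tissue collection, and its part in these values was not tested.

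The authors' deposited pathway table for these livers draws on the same 776 genes, and 309 genes were counted in it. Of 270 KEGG pathways, 27 had an adjusted p under 0.05 in the authors' deposited table. In all 27 more genes were lower than higher in KO, but 551 of all 776 genes were lower too. The share lower among the 309 counted genes was not computed. Cell adhesion molecules led in the authors' deposited table with 24 genes, 3 higher and 21 lower (adjusted p = 1.12e-05). Antigen processing and presentation came next with 15 genes, 5 higher and 10 lower. The antigen presentation list described above had a median of -0.56, but 0.11 without WT replicate 2. B cell receptor signaling held 13 genes, 1 higher and 12 lower (adjusted p = 0.000625), in the authors' deposited table. There, ECM-receptor interaction held 11 genes, all lower (adjusted p = 0.0218 in the authors' deposited table). Oxidative phosphorylation held 3 of the genes in the authors' deposited table, with an adjusted p of 0.987, and Retinol metabolism held 10, of which 8 were higher (adjusted p = 0.0622).

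Set beside the WD livers, the chow differences were small. With no library in common, the log2 fold changes of KO over WT on chow and on WD had a Pearson's r of 0.337 across 14019 genes, which are not independent. The list medians lay on the same side for the respiratory chain, with 0.14 and 0.30 for complex I on chow and on WD, and for B cells, with -0.68 and -1.09. Collagens and matrix had -0.25 on chow and -1.12 on WD, and macrophage genes -0.26 and -1.65. A test of the difference of the KO effect between diets called 77 genes (0.549%), 18 with a higher and 59 with a lower effect on WD. Slco1a1, an organic anion transporter of male liver, measured 98.9, 111 and 74.1 FPKM in KO and 62.7, 45.7 and 81.9 FPKM in WT on chow, and 149, 125 and 133 FPKM under the KO label and 9.15, 9.35 and 11.0 FPKM under the WT label on WD. Its KO effect was 3.07 ± 0.29 larger on WD (limma adjusted p = 0.00164). For Slc22a7, whose effect was 1.14 on chow and 2.11 on WD, the difference of 0.97 did not pass (limma adjusted p = 0.26).

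**Figure D5:**
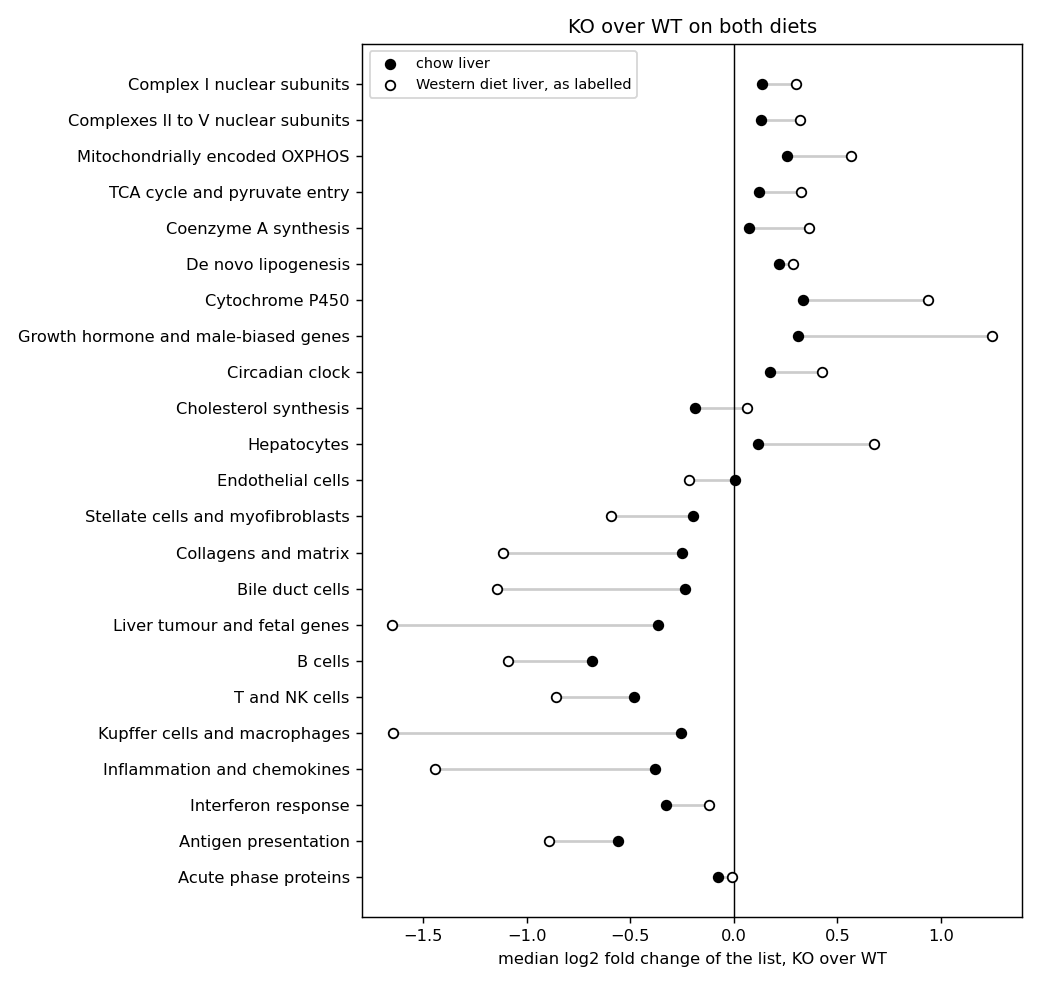
Median log2 fold change of KO over WT for 23 gene lists in chow liver (filled points) and in Western diet liver as labelled (open points). On chow the points lie closer to 0 for most lists, including collagens and matrix at -0.25 against -1.12.

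Chow iWAT, which came from the study's chow groups of the same genotypes, gave a Pearson's r of 0.328 with the chow liver across the 12296 genes tested in both. Elovl6 was on the higher side there too, at 101, 58.8 and 43.6 FPKM in KO and 19.97, 19.2 and 27.7 FPKM in WT, and so was Paqr9, at 12.04, 15.5 and 10.4 FPKM in KO and 6.74, 7.31 and 6.46 FPKM in WT. Limma called neither in iWAT (adjusted p = 0.532 and 0.779). Lpl, which was lower in KO livers, had a log2 fold change of 0.03 in iWAT.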

How the data were processed

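RNA was sequenced as paired ends from libraries made on poly-T beads, per the labels' protocols. HISAT2 2.0.5 and DESeq2 1.20.0 are listed, with the mm10 build, per the submitters' processing notes. The authors deposited FPKM per gene with the gene length; no source used here gives the read counter or the strandedness. Counts in the authors' deposited chow liver table, with their log2 fold change and p-value, cover genes with an unadjusted p under 0.05. FPKM times length and a constant per library gave whole reads (within 0.01) for 100% of 540911 values, and all 4656 deposited counts equalled them. A further 14 deposited columns were not used.

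Limma 3.58.1 was fitted in R 4.3.3 to log2(FPKM + 1) of 12 livers in 4 groups with a trended, robust variance, and adjusted by Benjamini and Hochberg over 14019 genes. The pseudocount of 1 understates fold changes of weak genes. edgeR 4.0.16 (quasi-likelihood) and DESeq2 1.42.0 on recovered reads were alternatives, since the main measurement is FPKM. Replicates are separate mice, per the labels; within a group, r was 0.954 to 0.970. Livers of equal replicate number were not treated as pairs. Members and 42 gene lists were chosen with earlier results of these data known. Named genes were Mrs2, the 12 largest differences either way (unadjusted p under 0.05, no overlap, a mean of at least 3 FPKM in the higher group, no clone or model name), calls of limma, DESeq2, edgeR or the deposited table, up to 4 members per list by p and, for other cell types, also the 2 most abundant; others are levels chosen for context. scipy 1.17.1 and matplotlib 3.10.9 served the exact test and plots. A few genes that the rule names are not reported here.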

Additional observations from a re-analysis of the deposited data

Results flagged for a closer look

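For 4 of the named genes the effect of KO differed between the diets by limma's test of the difference. Slco1a1 had a KO effect that was 3.07 larger on the log2 scale in WD livers than in chow livers (adjusted p = 0.00164). For Epcam, an adhesion protein of bile duct cells, the difference was -1.57 (adjusted p = 0.00238), with 0.762, 0.506 and 0.764 FPKM in KO and 0.559, 0.413 and 0.278 FPKM in WT on chow. On WD Epcam had 0.622, 0.756 and 0.668 FPKM under the KO label and 2.90, 3.31 and 3.42 FPKM under the WT label. The membrane proteins Tspan8 and Cd24a gave -1.63 (adjusted p = 0.0153) and -1.52 (adjusted p = 0.0367). On chow their groups overlapped; Tspan8 had 0.320, 0.280 and 0.382 FPKM in KO and 0.766, 0.631 and 0.381 FPKM in WT, from at most 16 reads a library. The WD livers are compared as labelled, since Mrs2 did not separate their genotypes.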

How the results depend on the processing

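Limma called 0 genes between KO and WT on chow under pseudocounts of 0.1 and 0.5, a minimum mean of 5 FPKM, the chow livers alone, both rescalings, library weights and edgeR. With no filter on low values it called 3 of 29269 genes, leaving out 1 library gave 0 to 2, leaving out KO replicate 1 and WT replicate 3 together gave 4, and DESeq2 gave 16, or 15 on the chow livers alone (added after seeing the data). A replicate block called 0 genes, with 711 at an unadjusted p under 0.05 in place of 675. Residuals of equal numbers correlated at 0.110, -0.113 and -0.0797, and those of unequal numbers at -0.111 to 0.185. With 3 livers a group, these values cannot settle whether equal numbers mark pairs. Mrs2 kept its direction in all 18 alternatives that tested it, between -0.59 and -0.41 with adjusted p of 0.0453 to 0.999; only DESeq2 on the chow livers alone (-0.58, adjusted p = 0.0453) passed. At a minimum mean of 5 FPKM Mrs2 was not tested.

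Genes whose KO effect differed between diets numbered 77, against 13 with a pseudocount of 0.1, 50 with no filter, 6 at a minimum of 5 FPKM, 20 with the replicate block, 154 with library weights, 12 without KO replicate 1 and WT replicate 3, 13 by edgeR and 528 by DESeq2. Leaving out 1 library gave 15 (without KO replicate 3) to 291 (without WT replicate 2), with 18, 21, 35 and 23 for KO replicates 1 and 2 and WT replicates 1 and 3; the cause was not tested. The difference of mitochondrial read shares, 0.431 percentage points, was 0.139 to 0.689 on leaving out 1 liver, and without KO replicate 2 it was the smallest.

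Beside Mrs2, 93 genes given with a fold change were tested under up to 19 alternatives. Of these genes 20 passed the threshold, all of them in DESeq2 only. None of the 1723 values was scored as reversed, but that score did not count every change of sign. It was 0 for list medians too, although antigen presentation had -0.56 with and 0.11 without WT replicate 2. List medians moved by more than the spread between libraries in 50 of 797 values. With 3 mice a group, differences near the median standard error of a gene were not detectable.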
